A study of Mus musculus with 2 samples.

Results

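N6-methyladenosine (m6A) was examined in the mRNAs of matrix, integrin and proteoglycan genes of early mouse retinal organoids. Genes were chosen by name: the collagen alpha chains, laminins, integrins, syndecans, glypicans and protocadherins, Fn1, Sparc, Hspg2, Nid1, Nid2, and the P4h and Plod enzymes. The rule matched 39 of 8262 named genes, all 39 listed in replicate 2 and 18 of them in replicate 1. A site was a listed transcript position with at least 20 reads in replicate 2. Of 16212 such sites, 70 lay on 15 transcripts of 12 of these genes. The name pattern also took in Itgb1bp1 and Itgb3bp, which encode proteins named for binding integrin subunits and are not integrins.

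The 2 libraries formed 1 group, with no second condition. Both came from Rx:GFP mouse cells of wild-type genotype, differentiated with AGN at 0.1 µM and collected as organoids at day 6. Poly(A) RNA (1 µg per library) was sequenced as native RNA with the RNA002 nanopore chemistry, on a flow cell per library, under the same batch label. The labels do not say whether the libraries came from separate cultures, so the spread between them may be technical. All material is of 1 cell line. Replicate 1 listed 26441 positions and replicate 2 listed 50099, of which 94 and 254 lay in the chosen genes, and the total reads per library were not used here.

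The extracellular matrix is a network of secreted collagens, laminins and glycoproteins that cells assemble around themselves, in sheets called basement membranes where epithelia rest. Integrins are paired transmembrane receptors that hold cells to this network, and syndecans and glypicans are cell-surface proteins carrying heparan sulfate chains that bind matrix and growth factors. The early retina is an epithelium that lies on a basement membrane. m6A is a methyl mark on adenosine within mRNA, written mostly by a complex that contains METTL3, and it is linked with mRNA turnover and translation. The deposited fraction modified scores how much of the RNA carries the mark at a position. Its denominator is not stated, and the reads given beside each fraction are the deposited coverage, which is not that denominator: 0.25 at 5 reads, for example, is no whole number of them.

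Sites that lie close together on a transcript are shown first by their letters, since their fractions are compared below. The deposited tables give the motif of 5 bases at each position, and the bases between motifs were not read here. The stretches below join motifs of neighbouring sites at the deposited distance, written 5′ to 3′ in DNA letters, with motifs in capitals and unread bases as n. This assumes that every position marks the same base of its motif.
Sdc1 (positions 1555 and 1566): GGACAnnnnnnGGACC
Sdc1 (positions 1566 and 1581): GGACCnnnnnnnnnnGGACC
P4hb (positions 1541 and 1547): AGACTnGGACA
Col18a1 (positions 2635 and 2644): GGACTnnnnGGACA
Col4a2 (positions 5899 and 5916): GGACCnnnnnnnnnnnnGGACA

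These were all the pairs of adjacent member sites within 20 nt. At the Sdc1 pair of identical motifs, 15 nt apart, the fractions differed several-fold in both libraries. At the P4hb pair, 6 nt apart, both fractions were above 0.7 in both libraries. The values are given with each gene.

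Depth decided which of the 39 genes could be examined. A site was reached by 12 of them (30.8%, 95% Wilson interval 18.6% to 46.4%), against 48.6% of all listed genes of replicate 2. Their deepest listed position had a median of 9 reads, against 19 over all listed genes. In bulk RNA, fewer cells of a type and less RNA per cell cannot be told apart. Sparc reached the highest coverage at 201 reads in replicate 2, the 95.7th percentile of listed genes, and P4hb followed at 157 reads. Fractions carry no interval of their own, and Wilson intervals on shares cover counting error only.

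**Figure D1:**
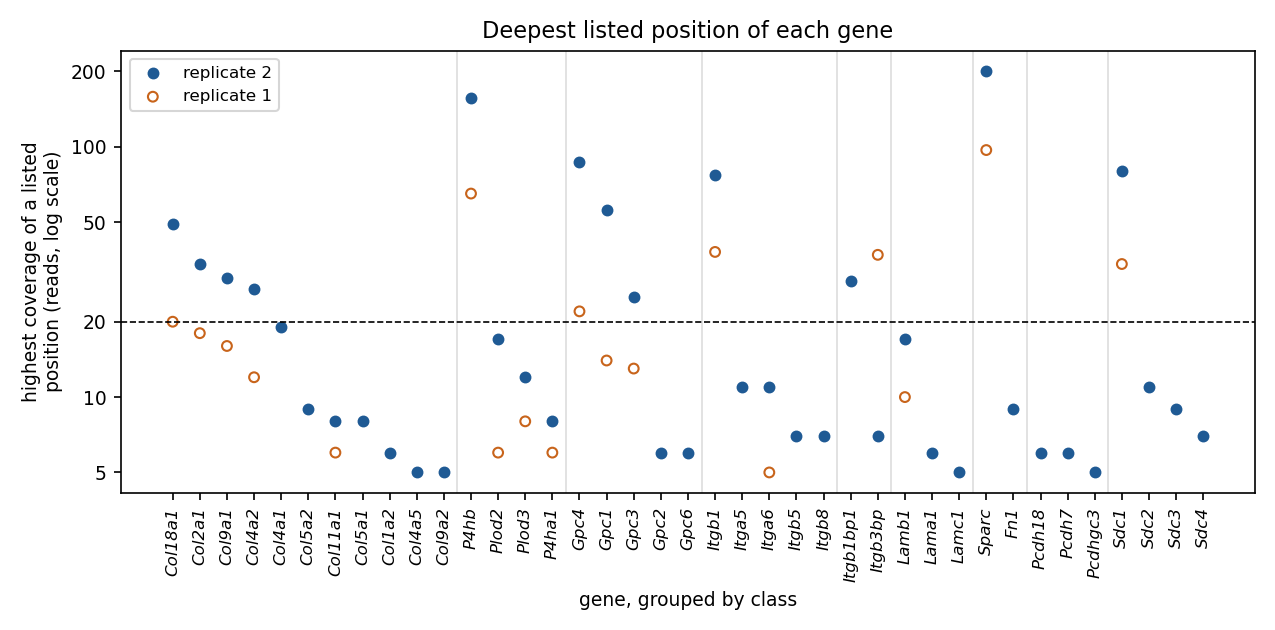
Highest coverage of any listed position of each of the 39 genes, in reads on a log axis, with replicate 1 as open and replicate 2 as filled points and the dashed line at 20 reads. Vertical lines separate the classes of genes, and 12 genes reach the line in replicate 2, with Sparc highest at 201 reads.

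The 27 genes without a site had at most 5 to 19 reads, with a median of 7. They included all 3 laminins, all 3 protocadherins (homophilic adhesion proteins), Fn1 (fibronectin, which many integrins bind) and 7 of 11 collagens. Col4a1, the partner chain of Col4a2 in type IV collagen, came closest with 19 reads. Lamb1, a laminin beta chain, reached 10 reads in the first library and 17 in the second. Lama1 and Lamc1 reached 6 and 5, and the glypicans Gpc2 and Gpc6 reached 6 each. Itgb3bp had 7 reads in replicate 2 but 37 in replicate 1. Hspg2 (perlecan), Nid1 and Nid2 (nidogens), which join basement membrane networks, were not listed in either library. The collagen prolyl hydroxylase subunit P4ha1 and the lysyl hydroxylases Plod2 and Plod3 had at most 8, 17 and 12 reads in replicate 2. The syndecans Sdc2, Sdc3 and Sdc4 had at most 11, 9 and 7 reads, and the integrin subunits Itga5, Itga6, Itgb5 and Itgb8 had 11, 11, 7 and 7. Just inside the read minimum, 10 positions with 20 to 24 reads had a median fraction of 0.400. Just outside it, 20 positions with 15 to 19 reads had a median of 0.321.

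Over the 70 sites the median fraction in replicate 2 was 0.383 (interquartile range 0.214 to 0.680), from 0.0130 in Sparc to 0.958 in Sdc1. Over the 16142 other sites it was 0.345 (all sites 0.345). Replicate 1 also listed 43 of the 70 (61.4%, Wilson interval 49.7% to 72.0%), against 74.8% of all sites. At these 43 sites the median was 0.5 in replicate 1 and 0.400 in replicate 2, a mean of 0.450 ± 0.0707 (SD, n = 2). The same mean over other sites was 0.366 ± 0.0127 (SD, n = 2). The members' replicates stood further apart from each other than replicate 2 stood from the other sites, which had 0.357 there. Sparc holds 8 of the 43, and without it the median over the other 35 was 0.600 in both replicates. Over all 59 sites outside Sparc it was 0.441 in replicate 2.

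Fractions of at least 0.8 in replicate 2 were seen at 8 of 70 sites (11.4%, Wilson interval 5.91% to 21.0%), against 17.6% of all sites. Fractions of at most 0.1 were seen at 11 (15.7%, 9.01% to 26.0%), against 16.6%. Both intervals contain the share over all sites, but they count sites as independent although sites of a transcript share reads, so this is no test. Replicate 1 gave more high values: 11 of the 43 paired sites reached 0.8 there and 4 of 43 in replicate 2, against 21.1% and 19% of all sites listed in both. Of the 7 that were high in replicate 1 only, 5 had fewer than 20 reads in that library, and their fractions in replicate 2 were 0.5 to 0.729. The 4 high in both were 2 sites of Sdc1, 1 of Itgb1 and 1 of P4hb.

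**Figure D2:**
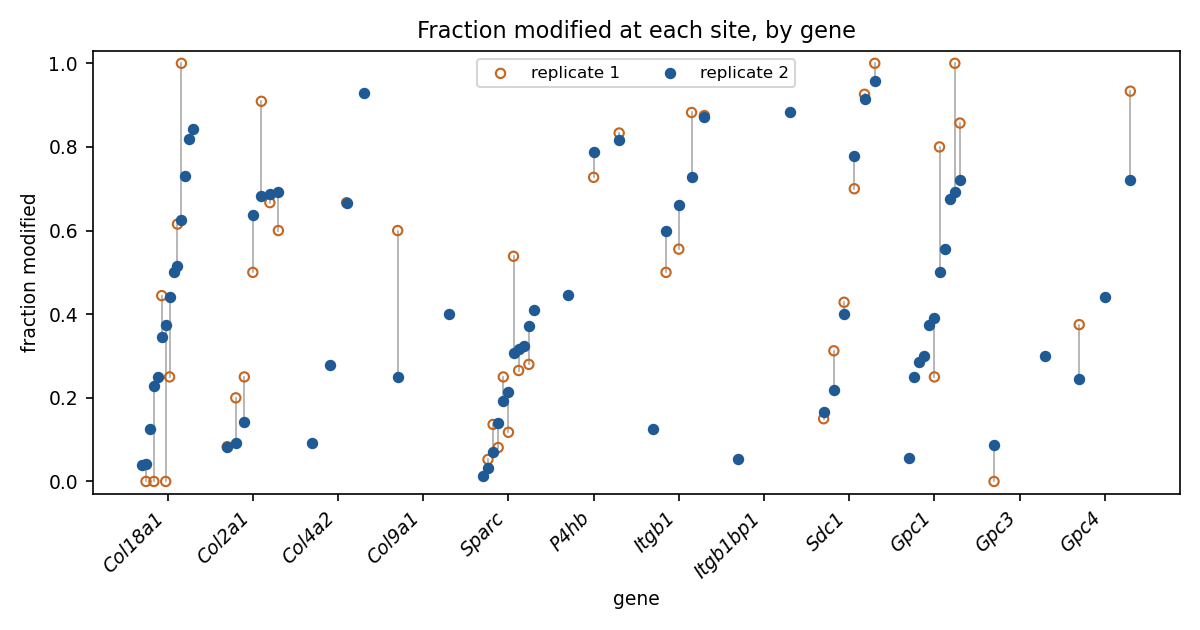
Fraction modified at each of the 70 sites by gene, with open points for replicate 1 where listed, filled points for replicate 2 and a grey line joining the values of a site. All 11 Sparc sites lie at or below 0.411 in replicate 2, while Sdc1 spans 0.167 to 0.958.

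The fraction depends on the motif over the whole series, so each site was also set against the median of its motif over all sites in replicate 2. Of the 70, 35 lay above it (50%), against 49.5% of all sites. By motif the sites divided much as elsewhere. The GGACA motif held 23 (32.9%, Wilson interval 23.0% to 44.5%) against 35.6% of other sites. GGACC held 18 (25.7% against 22.1%), GGACT held 16 (22.9% against 24.2%) and AGACT held 13 (18.6% against 18.1%). At GGACA, the motif with the highest fractions in the series, the members' median in replicate 2 was 0.516 against 0.667 over other sites, and 8 of 23 lay above the median of that motif. At GGACC it was 0.331 against 0.231, with 12 of 18 above. At GGACT it was 0.282 against 0.230 and at AGACT 0.250 against 0.263. Sites of a transcript share reads, so these are descriptions without a test.

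Among the structural collagens, Col18a1 (type XVIII collagen, a basement membrane collagen with heparan sulfate chains and the source of endostatin) had the most sites of any member gene. It lies on chromosome 10 (76888012 to 77002382). Its 14 sites on transcript ENSMUST00000081654.12 had 21 to 49 reads in replicate 2, and 7 of them were listed in replicate 1 with 5 to 20 reads. Its 7 GGACC sites spanned nearly the whole range in replicate 2. Positions 1319 and 1843 had 0.818 and 0.842, positions 1405 and 3001 had 0.5 and 0.625, and positions 2941, 3864 and 2152 had 0.375, 0.345 and 0.0400. Position 3744, a GGACT, had 0.731 at 49 reads, while the GGACT at position 2635 had 0.0417 at 36 reads and 0 at 5 reads in replicate 1. The GGACA 9 nt downstream, at position 2644, had 0.440 at 37 reads and 0.250 at 5 reads. The neighbours therefore kept their order in both libraries, at a depth in replicate 1 where single fractions are coarse.

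Replicate error was wide in Col18a1. Position 2941 had 0 (6 reads) in replicate 1 against 0.375 (42 reads) in replicate 2, and position 3001 had 1 at 7 reads against 0.625 at 41 reads. These were the largest differences between replicates among the members, in opposite directions. At the deepest paired site, position 4978, the fractions were 0.615 at 20 reads and 0.516 at 49 reads.

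Col2a1 (type II collagen, the fibrillar collagen of cartilage and the vitreous; chromosome 15, 97873483 to 97902576) had 7 sites on a pair of transcripts, all listed in replicate 1 with fewer than 20 reads. On transcript ENSMUST00000023123.14, position 4807 (GGACT) had 0.909 (18 reads) and 0.682 (34 reads) in the first and second library. Position 4844 (AGACT) had 0.0833 in both, at 18 and 34 reads. Position 4642 (GGACA) had 0.5 at 16 reads and 0.636 at 34 reads, and position 3506 (GGACC) had 0.2 at 13 reads and 0.0909 at 27 reads. In each library 2 of these sites were at or above 0.5 and 2 were at or below 0.2.

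Col4a2 (type IV collagen, the network of basement membranes; chromosome 8, 11362805 to 11499287) had 4 sites with 21 to 27 reads. The fraction at position 5899 (GGACC) was 0.667 in both libraries, at 12 and 27 reads. Position 5916, a GGACA 17 nt further, had 0.929 at 27 reads in replicate 2 alone, and the GGACT sites at positions 4937 and 5287 had 0.278 and 0.0909. Col9a1 (type IX collagen, found on the surface of type II fibrils; chromosome 1, 24216691 to 24291765) had 1 site on each of a pair of transcripts. Position 3005 of ENSMUST00000054588.14 had 0.400 at 28 reads in replicate 2. Position 2230 of ENSMUST00000088349.2 had 0.600 (16 reads) in the first library and 0.250 (30 reads) in the second, so its level is not settled by these data.

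Sparc, a secreted glycoprotein that binds collagen and modulates cell contact with the matrix (chromosome 11, 55285326 to 55314009), was the deepest and had the lowest fractions of the genes with at least 3 sites. Its 11 sites had 64 to 201 reads and a median of 0.213 in replicate 2, and 3 of 11 lay above the median of their motif, against 49.5% of all sites. At 0.5 or more were 0 of the 11 in replicate 2, against 37.5% of all sites. As set out below, 5 pairs among the 11 may each be a position counted on both transcripts. On the deeper transcript, ENSMUST00000018737.12, position 594 (GGACC) had 0.265 at 72 reads and 0.318 at 161 reads in replicates 1 and 2. Position 1191 (GGACA) had 0.280 at 82 reads and 0.373 at 178 reads, and position 1980 (AGACT) had 0.0811 at 97 reads and 0.141 at 201 reads. On this transcript all 3 were higher in replicate 2, by less than 0.1, while their counterparts on the shallower one went both ways. Positions 735 (GGACT) and 1800 (AGACT) were listed in replicate 2 only, at 0.0130 at 164 reads and 0.411 at 196 reads.

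The shallower Sparc transcript, ENSMUST00000108858.7, carried its own values, and the files do not say whether a read could count for both transcripts. Its positions carried the same motifs as the deeper one at a constant offset of 185 nt, at 6 positions. Over the 5 pairs with at least 20 reads on both transcripts in replicate 2, the median gap in fraction was 0.0664 and the widest 0.105. The lowest site was low on both, at 0.0130 at 164 reads and 0.0323 at 67 reads, and at 0.0526 at 21 reads in replicate 1 on the shallower transcript. The GGACC at position 1528 had 0.136 at 31 reads and 0.0704 at 96 reads, and its counterpart at position 1713 of the deeper transcript had 0.0625 at 89 reads in replicate 1. In replicate 1 the transcripts stood further apart, with a median gap of 0.158 and a widest of 0.259 over the 4 pairs with at least 20 reads on both. The widest was the GGACA, with 0.539 at 26 reads at position 1006 and 0.280 at 82 reads at position 1191. Position 1006 had 0.306 at 85 reads in replicate 2, so its replicates differed by over 0.2. The AGACT at position 1795 had 0.250 at 37 reads and 0.192 at 105 reads, and the GGACC at position 409 had 0.118 at 20 reads and 0.213 at 64 reads. If matching motifs at a constant offset are the same site, as gene annotation was not used to place them, 9 of the 70 sites in Sparc, Col2a1 and Col9a1 are repeats and 61 are distinct. Over all 9 pairs, each with at least 20 reads on both transcripts, the median gap in replicate 2 was 0.0596 and the widest 0.150, in Col9a1. With fewer than 20 reads on a transcript, a Col2a1 pair differed by 0.242 and Col9a1 pairs by 0.173 and 0.0341 in replicate 2. In replicate 1 the 8 pairs listed on both transcripts, at 5 reads or more, had a median gap of 0.168 and a widest of 0.467, in Col2a1. Reads can be assigned to the wrong isoform, which was not tested.

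Of the 4 P4h and Plod enzymes, P4hb alone had sites. P4hb is protein disulfide isomerase, which also serves as the beta subunit of collagen prolyl hydroxylase in the endoplasmic reticulum (chromosome 11, 120451124 to 120464079). Position 1541 (AGACT) had 0.833 (65 reads) in the first library and 0.816 (157 reads) in the second. Position 1547 (GGACA) had 0.727 at 65 reads and 0.787 at 157 reads. Each site differed by less than 0.1 between replicates, and both neighbours were above 0.7 in each library. The AGACT site had the highest fraction in replicate 2 of the 13 member sites at that motif, whose median over other sites was 0.263. Position 524 (GGACA), listed in replicate 2 only, had 0.446 at 135 reads.

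Among integrin subunits, Itgb1 alone had sites. It encodes the beta subunit shared by many collagen, laminin and fibronectin receptors (chromosome 8, 129412135 to 129459681; transcript ENSMUST00000090006.11). Position 3635 (GGACT) had 0.875 (32 reads) in the first library and 0.870 (77 reads) in the second, the highest in replicate 2 of the 16 member sites with the GGACT motif. Position 2472 (AGACT) had 0.882 at 31 reads and 0.729 at 77 reads. Position 3552 (AGACT) had 0.556 at 31 reads and 0.661 at 77 reads. Position 1909 (GGACA) had 0.5 at 26 reads and 0.600 at 69 reads. The 4 sites listed in both libraries were at or above 0.5 in each. Of all such sites, a mean of 40.7% per library were at or above 0.5. The share at or above it in both libraries was not computed. Lower fractions stood at positions listed in a single library. In replicate 1 these were positions 2091, 2634 and 2962, with 0.118 at 26 reads, 0.211 at 34 reads and 0.121 at 38 reads. Position 3444 (GGACC) was listed in replicate 2 only, at 0.125 at 72 reads. The binding protein Itgb1bp1 (chromosome 12, 21290826 to 21336285), which attaches to the tail of that subunit, had 2 sites in replicate 2 only, a GGACT with 0.0526 at 28 reads and a downstream GGACA with 0.885 at 29 reads.

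Sdc1 (syndecan, a transmembrane heparan sulfate proteoglycan; chromosome 12, 8821323 to 8843715; transcript ENSMUST00000020911.13) had 6 sites, all with at least 20 reads in both libraries. Position 1555 (GGACA) had 0.926 (29 reads) in the first library and 0.914 (74 reads) in the second. Position 1566 (GGACC) had 0.150 at 29 reads and 0.167 at 74 reads. Position 1581 (GGACC) had 0.700 at 29 reads and 0.778 at 74 reads. Position 1617 (GGACA) had 1 at 29 reads and 0.958 at 75 reads, the highest mean of any member site at 0.979 ± 0.0299 (SD, n = 2). The site at position 1566 thus had the lowest fraction of 4 within 62 nt, at nearly the same coverage, and the other 3 were at 0.7 or more in both libraries.

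The same motif gave different fractions within Sdc1. The GGACC sites at positions 1566 and 1581 differed by 0.550 in replicate 1 and 0.611 in replicate 2, a mean of 0.581 ± 0.0432 (SD, n = 2), beyond the spread between libraries. The GGACA at position 212 had 0.313 at 24 reads and 0.219 at 50 reads, and lay below that at position 1617 by 0.713 ± 0.0364 and below that at position 1555 by 0.654 ± 0.0580 (each SD of the difference, n = 2). These 3 pairs were taken as the widest, and no test is given for them, since the two-sided exact paired permutation test over 2 replicates cannot go below p = 0.5. The 6 same-motif pairs with at least 20 reads in both libraries lay in 3 genes, most of them in Sdc1 and sharing sites. Of the 6 pairs, 5 kept their direction in both libraries, and the share over all such pairs of the series was not computed. The remaining pairs differed by less: 0.198 ± 0.183 in Itgb1, 0.0588 ± 0.0217 between the high Sdc1 sites, and 0.0618 ± 0.114 in Sparc, where the direction turned. The site at position 2017 of Sdc1 (GGACT) had 0.429 at 34 reads and 0.400 at 80 reads.

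**Figure D3:**
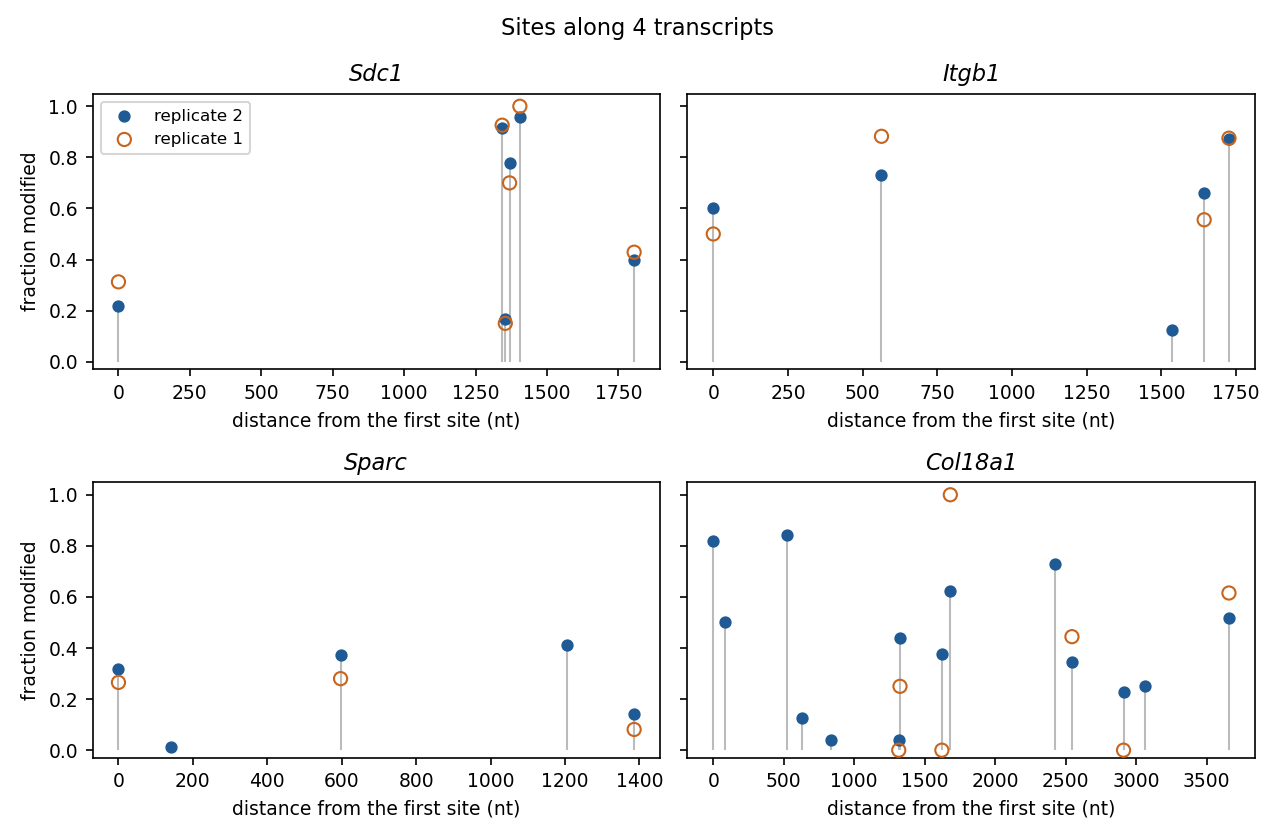
Fraction modified against distance in nt from the first site on the transcripts of Sdc1, Itgb1, Sparc (the deeper transcript) and Col18a1, with open points for replicate 1, filled points for replicate 2 and stems drawn to replicate 2. In Sdc1 the site at 0.167 in replicate 2 stands among sites of 0.914, 0.778 and 0.958.

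The glypicans are heparan sulfate proteoglycans held to the membrane by a lipid anchor. Gpc1 (chromosome 1, 92759367 to 92788501; transcript ENSMUST00000045970.7) had 11 sites with 26 to 56 reads, and 4 were listed in replicate 1 with 11 to 14 reads. At those 4 the median was 0.829 in replicate 1 and 0.596 in replicate 2. Position 1982 (GGACT) had 1 at 11 reads and 0.692 at 31 reads, and position 1819 (GGACC) had 0.857 at 11 reads and 0.720 at 31 reads. Position 2710 (AGACT) had 0.8 at 14 reads and 0.5 at 46 reads. Position 2350 (GGACT) went the other way, with 0.250 at 14 reads and 0.391 at 34 reads. The 4 GGACA sites had 0.250 to 0.676 in replicate 2 and the 4 GGACT sites 0.0556 to 0.692.

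Gpc4 (chromosome X, 51141898 to 51254129; transcript ENSMUST00000033450.2) was deeper. Position 2339 (GGACA) had 0.933 at 22 reads and 0.721 at 87 reads, 1 of the 2 member sites at this depth in both libraries whose replicates differed by over 0.2. Position 1136 (GGACC) had 0.375 at 16 reads and 0.245 at 60 reads, and position 2261 (GGACA), listed in replicate 2 only, had 0.441 at 86 reads. Gpc3 (chromosome X, 51361303 to 51702827) had an AGACT at position 1992 with 0 at 13 reads and 0.0870 at 25 reads, and a GGACA at position 1390 with 0.300 at 21 reads in replicate 2. Of the 16 glypican sites, 0 were at 0.8 or above in replicate 2, against 17.6% of all sites, while 4 of the 7 listed in replicate 1 were at or above it there, against 21.1% of all sites listed in both. The medians of those 7 were 0.8 and 0.5.

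The spread of fractions among the sites of a transcript was set against that of all transcripts. Of 11 transcripts with at least 3 sites, 7 spanned more than 0.5 in replicate 2, against 75% of all such transcripts, with spans from 0.291 in Sparc to 0.838 in Col4a2. Within a single motif of a single transcript, 16 groups of 2 or more sites had a median span of 0.310, and 5 exceeded 0.5, in Col18a1, Gpc1 and Sdc1, against 31.6% of all such groups. Both counts lie near the share over the series or below it. Reads rose along the transcript: in all 11 the last site was deeper than the first in replicate 2, by up to 2.33-fold (median 1.29-fold), as in 80.7% of all such transcripts. The fraction had no common direction along the transcript, with a rank correlation to position above 0 in 8 and below 0 in 3, over 3 to 14 sites of shared reads each. The 11 transcripts came from 9 genes, and the share of each direction over the series was not computed.

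Replicates were compared at the 43 sites listed in both. Pearson's r was 0.880 and Spearman's rho 0.870 across sites, which share reads and are not replicates. The absolute difference had a median of 0.0952, and 18 sites were higher in replicate 2, 23 lower and 2 equal. It exceeded 0.2 at 9 of 43 (20.9%, Wilson interval 11.4% to 35.2%), against 15.7% of all sites listed in both. Of these 9, 7 had fewer than 20 reads in replicate 1 and 7 were higher in replicate 1. The difference narrowed with depth in replicate 1, with a root mean square of 0.220 at 7 sites of 5 to 9 reads, 0.192 at 14 sites of 10 to 19, 0.105 at 17 sites of 20 to 49 and 0.0612 at 5 sites of 50 or more. Over other sites it was 0.215, 0.166, 0.114 and 0.0659 in those classes.

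**Figure D4:**
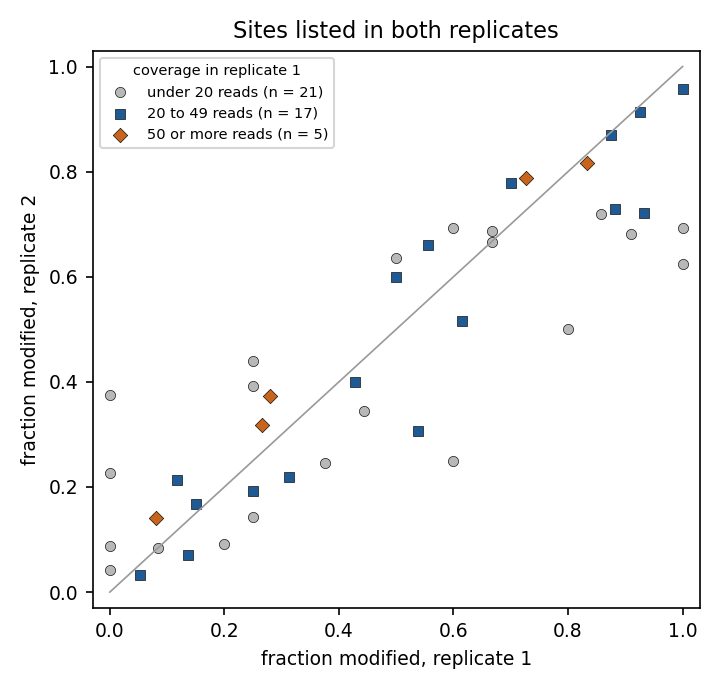
Fraction modified in replicate 1 against replicate 2 at the 43 sites listed in both, with symbols by coverage in replicate 1 and the line of equal values. The 5 sites with 50 or more reads have the smallest root mean square distance between replicates (0.0612), and the sites at 0 or 1 in replicate 1 have mostly fewer than 20 reads there.

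Other genes of matrix assembly and adhesion were taken from 5 lists of 124 genes, of which 73 were listed in replicate 2 and 40 had sites. Their 197 sites had a median of 0.346, with 38 (19.3%) at 0.8 or more and 34 (17.3%) at 0.1 or less, against 17.6% and 16.6% of all sites. For collagen folding, crosslinking and processing, 8 of 21 genes had 31 sites with a median of 0.302. Serpinh1, the collagen chaperone of the endoplasmic reticulum, had 4 sites from 0.0682 to 0.944, with medians of 0.471 in replicate 1 and 0.560 in replicate 2. Of the disulfide isomerases related to P4hb, Pdia6 had 4 with medians of 0.885 and 0.848 and Pdia3 had 7 with medians of 0.361 and 0.354. For heparan and chondroitin sulfate synthesis, 10 of 25 genes had 52 sites with a median of 0.441. Sulf2, which removes sulfate groups from heparan chains, had 13 sites with a median of 0.333. For integrin adhesion and signalling, 14 of 22 genes had 72 sites with a median of 0.379. Ilk, an adaptor that binds the beta integrin tail, had 9 sites with a median of 0.423 and Ptk2, the focal adhesion kinase, 8 with 0.612. For other matrix glycoproteins 3 of 35 genes had 16 sites (median 0.398), 11 of them in Dag1, the laminin receptor dystroglycan. For matrix remodelling 5 of 21 genes had 26 sites (median 0.244).

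The label was checked against marker lists. Of 8 eye-field and retinal progenitor genes, 7 were listed in both libraries and 6 had sites, with up to 271 reads in replicate 2. None of 8 markers of parietal and visceral endoderm, which lay down much basement membrane, was listed in either library, nor any of 6 pluripotency or 3 neural crest markers. Of 8 mesenchyme and fibroblast markers, only Col1a2 was listed, with at most 6 reads. Of 4 endothelial markers, 1 was listed (13 reads at most), of 6 surface ectoderm and lens markers 2 (12 reads) and of 5 pigment epithelium markers 3 (14 reads), none with a site. Positions under 5 reads are not in the tables, and some positions were unlisted in a library although their neighbours were well covered there. An unlisted gene is therefore not shown to lack mRNA, and the part of these cell types in the values was not tested.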

How the data were processed

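Per the file headers, each library has 1 deposited table of transcript positions with the motif, the fraction modified and the coverage. The deposited fraction runs from 0 to 1, with its denominator not stated. The deposited coverage is a read count from 5 upwards (5 to 201 at the member positions). The base caller, aligner, modification caller and transcript reference are not given in the sources used here. The submitters' processing notes name the build mm10. Gene coordinates are as deposited: 2 of 39 member genes lay within 1000 bases of RefSeq's GRCm38.p6 interval, so their build is unsettled.

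Sites were matched between libraries on transcript and exact position. Means carry the SD of 2 replicates. Lists are described beside all sites, and sites received no test. An exact paired permutation over 2 replicates cannot go below p = 0.5, so no difference is supported by a test. Values were computed with pandas 2.3.3 and scipy 1.17.1 and drawn with matplotlib 3.10.9. Summaries were tested on simulated data. Every member gene is accounted for. Genes with sites of 20 reads in both libraries, the 3 genes with the most sites per class, the 5 highest and 5 lowest means among sites with 20 reads in both libraries, the 3 widest same-motif pairs at that depth and the 3 largest differences between replicates at any depth in replicate 1 were named by rule. Genes named from the related lists were chosen after their values were seen. The members and lists were chosen with earlier results of these data known. The deposited tables named minus held 0 member positions and were not used.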

Additional observations from a re-analysis of the deposited data

How the results depend on the processing

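The read minimum set the counts: 70 sites in 12 genes became 254 in 39 without a minimum, 125 in 19 at 10 reads, 30 in 6 at 50 reads, 22 in 6 with 20 reads in both libraries, and 30 in 7 with the minimum set in replicate 1. The median difference between replicates fell from 0.0952 to 0.0630 both at 50 reads and with 20 reads in both. The median fraction of 0.450 became 0.600 without Sparc over the 35 sites listed in both libraries, where all 59 had 0.441 in replicate 2. Over sites listed in both libraries it was 0.230 for AGACT sites (10), 0.600 for GGACA sites (13), 0.326 for GGACC sites (12) and 0.528 for GGACT sites (8), where all 16 GGACT sites had 0.282 in replicate 2. At a threshold of 0.5 the share of high sites was 48.8%, against 40.7% over all sites listed in both. The other 53 of 71 alternative values stayed within the limit set for them. The limit was the spread between replicates for medians and high shares, and the Wilson interval for the GGACA share. For counts and the difference between replicates it was 1.5 times. Some of the 53 could not move. Leaving out protocadherins, which had no sites, kept the same 70 sites, and any value from a single replicate lies within the spread between 2 replicates. Leaving out a replicate gave medians of 0.400 to 0.5 and shares of 9.30% to 25.6%, which with n = 2 says nothing about stability. Of 66 values for single genes 8 moved, but values from a single replicate could not, and many others rested on unchanged sites. Gpc3 went from 0.0435 at 1 site to 0.138 at 3 sites without a minimum and at 10 reads. Under the same settings Col2a1 went from 0.568 to 0.442. With 20 reads in both libraries Col18a1 went from 0.313 to 0.566 and Gpc4 from 0.569 to 0.827, each then on 1 site. With 1 transcript per gene Col2a1 became 0.357 and Sparc went from 0.198 to 0.164. Leaving out Sparc, Col18a1, isoform repeats or integrin-binding proteins was chosen after seeing the data, as were the settings for single genes. No paired analysis was possible because the samples form 1 group, so there were no groups to pair by replicate number. Low depth in replicate 1 limits most single fractions.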

Other observations

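Some positions were listed in a single library although neighbours on the same transcript were well covered in the other. Of the 27 member sites listed only in replicate 2, 4 lay between positions with at least 20 reads in replicate 1, in Sparc and Itgb1. Conversely, 8 member positions had at least 20 reads in replicate 1 and were not listed in replicate 2, and 5 of them lay between positions with at least 20 reads there. The shares of such positions over the whole series were not computed, so these counts do not set the member genes apart. Sparc position 1713 had 89 reads and a fraction of 0.0625 in replicate 1, between positions with 178 and 196 reads in replicate 2. In Itgb1, positions 2091, 2634 and 2962 had fractions of 0.118, 0.211 and 0.121 at 26, 34 and 38 reads in replicate 1, between positions with 69 to 77 reads in replicate 2. In Sdc1, position 1898 had 0.762 at 32 reads, between positions with 75 and 80 reads. Over the 8 positions the median fraction was 0.166, and over the 27 it was 0.324. Among the 39 genes, Itgb3bp alone had a deepest position with more reads in replicate 1 than in replicate 2, with 37 reads and a fraction of 0.120 at position 274, where its only position in replicate 2 had 7 reads.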
